A study of Mus musculus with 6 samples.

Results

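The genes described here are 10 natural killer and cytotoxic granule genes, Gzma, Gzmb, Prf1, Ncr1, Klrb1c, Klre1, Klrd1, Eomes, Nkg7 and Klra8, taken by their symbols from the 49568 genes of a count table of mouse lung. All 10 passed the filter on low counts and were among the 19199 genes tested. Poly(A) RNA of whole lung was sequenced from 3 TNF+ mice (TNF-Tg, line 3647) and 3 TNF- mice, their wildtype (WT) littermates, all 4 months old, female and on a C57BL/6 background, with 1 library per mouse. TNF+ mice carry 1 copy of the human TNF gene in the germline and develop erosive arthritis and pulmonary hypertension, so the groups differ by chronic disease as well as by the transgene, and the labels name no treatment for either group. The comparison asks how the lung transcriptome differs between TNF+ and TNF- mice. The libraries of a group come from separate mice. The table held mouse genes only, and the endogenous Tnf gene had between 106 and 405 counts in TNF+ lungs and between 14 and 35 in TNF- lungs.

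The libraries held between 25396923 and 32529408 counts, so 3 counts, taken as the smallest detectable level, stood for 0.0922 to 0.118 CPM (counts per 1e6 counts). In TNF+ lung 1 a single gene, Gm42418, took 5.22% of the counts (at most 0.274% in the others), and in TNF- lung 1 the squamous epithelial gene Krt13 had 45433 counts (0 to 8 in the others). Without these 2 lungs, an alternative chosen after seeing the data, the 10 genes again gave 6 lower and 1 higher.

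Natural killer cells are innate lymphocytes that kill infected, transformed or stressed cells without a rearranged antigen receptor. The balance of activating and inhibitory receptors on the surface decides whether they release their granules, from which perforin lets granzymes enter the target cell. The lung holds many natural killer cells, most of them carried in with the blood, and cytotoxic CD8 T cells, gamma delta T cells and group 1 innate lymphoid cells use several of the same genes. A gene of the list is therefore not by itself a count of natural killer cells.

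In TNF+ lungs, 6 of the 10 genes fell, 1 rose and 3 did not pass the test. Both granzymes, perforin, the activating receptor gene Ncr1 and the lectin-like receptor genes Klre1 and Klra8 were lower, by between 2.35-fold for Prf1 and 6.27-fold for Klre1, with Gzma beyond them at -3.31 on the log2 scale. Eomes, the T-box transcription factor that natural killer cells need to mature, was 2.24-fold higher. Klrb1c, Klrd1 and Nkg7 did not pass. The counts by direction are to be read against the whole table, where 47.4% of the genes tested passed, 24.0% higher and 23.4% lower. The median log2 fold change (TNF+ minus TNF-) was -1.42 over the 10 genes and 0.03 over all genes tested. Whole lung was sequenced, and fewer cells of a type and less RNA per cell cannot be told apart in these counts.

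The promoters of the 4 genes whose products are the granule proteins and the receptor Ncr1 are printed here because these genes fell together. Each is the 250 bases before the gene's start in RefSeq (GRCm38.p6), read 5′ to 3′ on the gene's strand, and capitals mark matches to the RUNX motif TGTGGT or its reverse complement ACCACA.
Gzma, chr13:113100982-113101231, minus strand: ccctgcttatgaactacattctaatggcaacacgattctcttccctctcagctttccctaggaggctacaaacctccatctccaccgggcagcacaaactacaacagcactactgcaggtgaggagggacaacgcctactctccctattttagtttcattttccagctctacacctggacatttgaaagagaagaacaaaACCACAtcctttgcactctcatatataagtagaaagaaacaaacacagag
Gzmb, chr14:56262335-56262584, minus strand: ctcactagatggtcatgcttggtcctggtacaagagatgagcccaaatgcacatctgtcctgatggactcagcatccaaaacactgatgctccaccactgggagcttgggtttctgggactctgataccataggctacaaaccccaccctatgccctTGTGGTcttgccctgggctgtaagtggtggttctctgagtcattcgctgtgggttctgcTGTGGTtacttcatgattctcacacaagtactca
Prf1, chr10:61297586-61297835, plus strand: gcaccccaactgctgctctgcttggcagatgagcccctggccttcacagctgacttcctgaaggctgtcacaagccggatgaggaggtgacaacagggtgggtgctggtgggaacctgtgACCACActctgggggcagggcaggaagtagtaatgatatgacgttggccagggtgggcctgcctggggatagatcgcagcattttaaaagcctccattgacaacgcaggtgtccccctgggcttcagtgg
Ncr1, chr7:4337465-4337714, plus strand: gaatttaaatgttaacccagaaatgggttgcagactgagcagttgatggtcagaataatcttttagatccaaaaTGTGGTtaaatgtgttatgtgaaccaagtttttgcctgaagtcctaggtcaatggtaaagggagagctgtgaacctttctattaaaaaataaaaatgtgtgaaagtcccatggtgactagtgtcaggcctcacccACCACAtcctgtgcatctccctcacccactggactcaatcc
The table of promoters held 9 of the 10 genes, all but Klrd1. Some genes have more than 1 entry, and the 9 genes have 12. By entry, 8 of the 12 held at least 1 RUNX match, against 14.0% of all 32851 entries of the same length. The 2 entries of Ncr1 overlap and hold the same 2 matches, so the same letters count more than once. The 14.0% is a share of entries, not of genes. By gene, 7 of the 9 held one in at least 1 entry, the 4 shown and Klrb1c, Klre1 and Nkg7, and the second entry of Klre1 held none. Klrb1c and Nkg7, which did not pass the test, thus carried the letters as the genes that fell did, and Klra8 and Eomes carried none. The T-box motif GGTGTGA was found in 1 of the 9 promoters, that of Nkg7, and in 3.33% of all entries. The STAT motif TTCNNNGAA was also found in that of Nkg7 alone, and in 7.02% of all entries. Both strands were searched for each motif, no match of 1 motif overlapped that of another, and a match describes letters, not bound protein.

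Granzyme A, a serine protease with trypsin-like specificity that is abundant in mouse natural killer cells, is encoded by Gzma (ENSMUSG00000023132.8, GRCm38 chr13:113093825-113100981, minus strand). Gzma had 43, 46 and 92 counts in TNF+ lungs 1, 2 and 3, and 624, 820 and 595 counts in TNF- lungs 1, 2 and 3. Every TNF+ lung was far below every TNF- lung. Scaled to library size, Gzma stood at 63.7 ± 20.6 normalized counts in TNF+ and 637 ± 133 in TNF- lungs (mean ± SD, n = 3 per group). Its log2 fold change was -3.31 (standard error 0.26, edgeR quasi-likelihood adjusted p = 4.16e-05). It had the greatest fall of the 10 genes, between -3.63 and -3.13 over the 15 alternatives.

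Granzyme B, the protease that cleaves caspases and other substrates in the target cell, is encoded by Gzmb (ENSMUSG00000015437.5, chr14:56258838-56262260, minus strand). Gzmb had 36, 17 and 34 counts in TNF+ lungs and 117, 90 and 109 in TNF- lungs. The groups did not overlap, and TNF+ lung 2 was the lowest. The means were 32.4 ± 15.0 and 98.3 ± 12.8 normalized counts (n = 3), a 3.04-fold difference (log2 fold change -1.62, standard error 0.34, edgeR adjusted p = 0.0056). Gzma fell further than Gzmb: the ratio of Gzma to Gzmb counts was 1.19, 2.71 and 2.71 in TNF+ lungs and 5.33, 9.11 and 5.46 in TNF- lungs, without overlap.

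Perforin, the pore-forming protein of the granules, is encoded by Prf1 (ENSMUSG00000037202.6, chr10:61297833-61304680, plus strand). Prf1 had 76, 109 and 91 counts in TNF+ lungs and 266, 278 and 205 in TNF- lungs, again without overlap. At 99.6 ± 13.4 against 234 ± 45.5 normalized counts (n = 3) it fell by the least of the 6 lower genes (log2 fold change -1.23, standard error 0.21, edgeR adjusted p = 0.00178). Nkg7 (ENSMUSG00000004612.9, chr7:43437073-43438249, plus strand), a granule membrane protein that is needed for granule exocytosis in killer lymphocytes, had 293, 424 and 421 counts in TNF+ lungs and 356, 449 and 399 in TNF- lungs. Its groups overlapped, at 407 ± 27.5 and 375 ± 48.4 normalized counts, and the difference did not pass (log2 fold change 0.12, standard error 0.14, edgeR adjusted p = 0.497). The gene for the granule membrane did not fall with the genes for the granule's killing proteins, and there were 3.86, 3.89 and 4.63 Nkg7 counts for each Prf1 count in TNF+ lungs and 1.34, 1.62 and 1.95 in TNF- lungs.

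**Figure D1:**
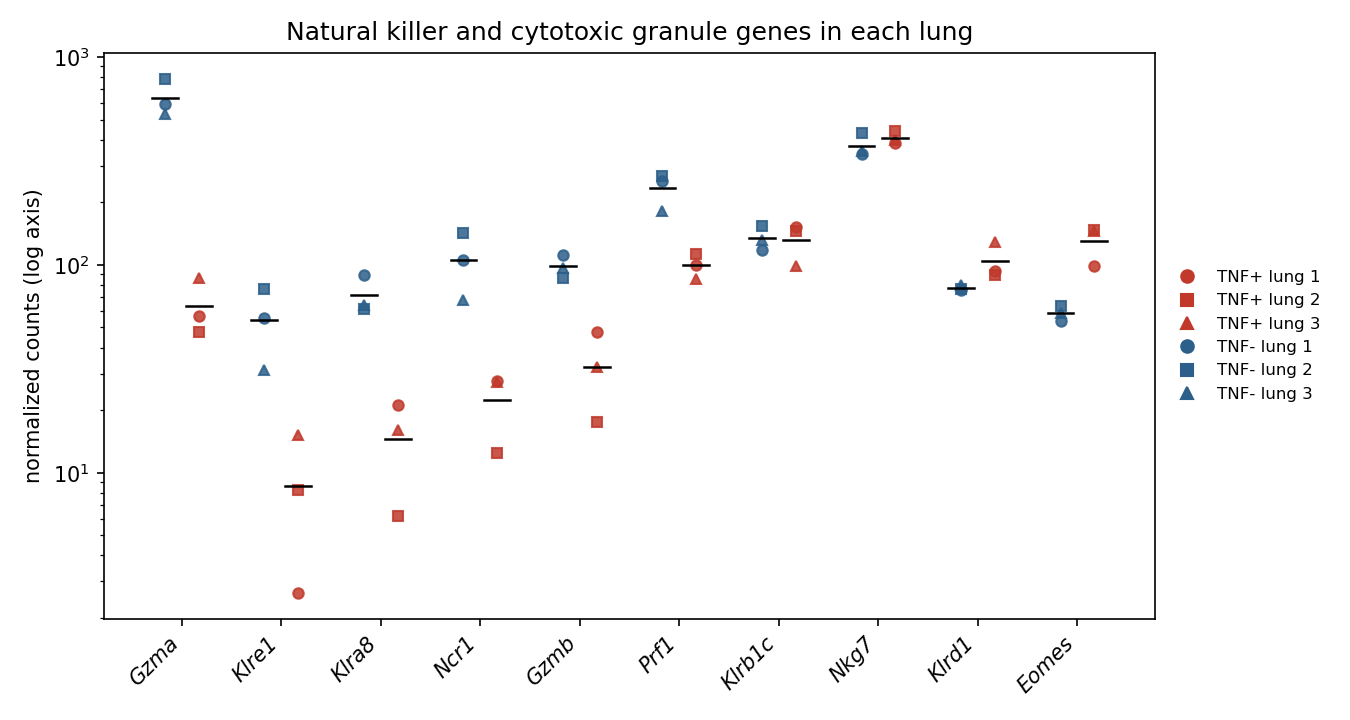
Normalized counts (log axis) of the 10 genes in each lung, TNF+ in red and TNF- in blue, with 1 symbol per mouse and a bar at the group mean. Gzma, Klre1, Klra8, Ncr1, Gzmb and Prf1 lie lower in every TNF+ lung, Eomes lies higher, and Klrb1c and Nkg7 overlap.

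Ncr1 (ENSMUSG00000062524.4, chr7:4337724-4345164, plus strand) encodes NKp46, the activating receptor most often used to define natural killer cells across mouse strains. Ncr1 had 21, 12 and 29 counts in TNF+ lungs and 110, 149 and 76 in TNF- lungs. Every TNF+ lung was lower, and the spread within each group was wide. The means were 22.5 ± 8.73 and 105 ± 37.6 normalized counts (n = 3), a 4.68-fold difference (log2 fold change -2.22, standard error 0.39, edgeR adjusted p = 0.00229).

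The other receptor genes lie in the natural killer gene complex of chromosome 6, where they did not move together. Klrb1c (ENSMUSG00000030325.16, chr6:128778485-128789215, minus strand) encodes NK1.1, the antigen that marks natural killer cells in C57BL/6 mice. It had 115, 140 and 104 counts in TNF+ lungs and 123, 161 and 148 in TNF- lungs. The normalized groups overlapped, at 132 ± 29.1 and 134 ± 18.6 (n = 3, log2 fold change -0.03, standard error 0.22, edgeR adjusted p = 0.91), and the sign turned to 0.12 without TNF+ lung 3 and to 0.07 without TNF- lung 2. NK1.1 and NKp46 are used as markers of the same cells, yet their genes parted here: the ratio of Klrb1c to Ncr1 counts was 5.48, 11.7 and 3.59 in TNF+ lungs and 1.12, 1.08 and 1.95 in TNF- lungs. In the annotation (GENCODE M21), 413 exon bases of Klrb1c overlapped those of Gm44511 on the same strand, and reads there fit both genes.

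Klrd1 (ENSMUSG00000030165.16, chr6:129591782-129598775, plus strand) encodes CD94, which pairs with the NKG2 chains to read the nonclassical class I molecule Qa-1. Klrd1 had 71, 86 and 137 counts in TNF+ lungs and 79, 80 and 90 in TNF- lungs. The raw counts overlapped. After scaling to library size each TNF+ lung was above each TNF- lung, at 104 ± 22.1 against 77.4 ± 2.32 normalized counts (n = 3), and the difference did not pass (log2 fold change 0.43, standard error 0.21, edgeR adjusted p = 0.132). Its partner genes did not pass either. Klrc1, which encodes the inhibitory chain NKG2A, had a log2 fold change of -0.31 (standard error 0.32, edgeR adjusted p = 0.465), and Klrc2, which encodes the activating chain NKG2C, one of -0.65 (standard error 0.30, edgeR adjusted p = 0.111).

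Klre1 (ENSMUSG00000050241.8, chr6:129577905-129585827, plus strand), a receptor chain that pairs with Klri1 or Klri2, is the gene next to Klrd1. It had 2, 8 and 16 counts in TNF+ lungs and 58, 80 and 35 in TNF- lungs. No TNF+ lung reached a TNF- lung, and TNF+ lung 1 was under the smallest detectable level of 3 counts. The means were 8.67 ± 6.24 and 54.4 ± 22.8 normalized counts (n = 3), a 6.27-fold difference (log2 fold change -2.57, standard error 0.54, edgeR adjusted p = 0.00553). Its size depended on TNF+ lung 3, without which the log2 fold change was -3.24, the far end of a range that began at -2.22. These neighbours went apart: there were 35.5, 10.8 and 8.56 Klrd1 counts for each Klre1 count in TNF+ lungs and 1.36, 1.00 and 2.57 in TNF- lungs. The 35.5 of TNF+ lung 1 divides by only 2 counts of Klre1. Its partner genes also went apart, Klri1, the inhibitory partner, rising (log2 fold change 2.10, standard error 0.39, edgeR adjusted p = 0.00284) and Klri2, the activating partner, falling (log2 fold change -0.87, standard error 0.24, edgeR adjusted p = 0.0188). Klri1 had 36, 39 and 52 counts in TNF+ lungs and 5, 13 and 16 in TNF- lungs, while Klri2 had 20, 22 and 32 against 52, 51 and 53. Klri2 did not pass without TNF+ lung 1, TNF+ lung 2 or TNF- lung 1 (log2 fold change between -0.90 and -0.77, edgeR adjusted p between 0.0501 and 0.0632).

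Klra8 (ENSMUSG00000089727.2, chr6:130115226-130129898, minus strand) encodes Ly49H, the activating receptor that binds a class I-like protein of mouse cytomegalovirus. Klra8 had 16, 6 and 17 counts in TNF+ lungs and 94, 64 and 72 in TNF- lungs. The groups were far apart, at 14.5 ± 7.57 and 71.7 ± 15.7 normalized counts (n = 3), a 4.96-fold difference (log2 fold change -2.32, standard error 0.41, edgeR adjusted p = 0.00218). The Ly49 genes are near copies of each other, and 14.4% of the 100-base windows of Klra8 occurred in another gene, most of them in the pseudogene Klra14-ps (13.7%). Of the 10 Klra genes, 6 were tested, of which 4 fell, none rose and 2 did not pass, with a median log2 fold change of -1.67. Klra4, the activating receptor Ly49D, had 5, 3 and 5 counts in TNF+ lungs and 40, 50 and 30 in TNF- lungs (log2 fold change -2.96, standard error 0.41, edgeR adjusted p = 0.00074) and shared no window with another gene. The inhibitory receptor genes Klra9 (-2.04, edgeR adjusted p = 0.00223) and Klra7 (-1.30, edgeR adjusted p = 0.0274) fell as well on the log2 scale, though Klra7 did not pass without TNF+ lung 1, TNF+ lung 2, TNF- lung 1 or TNF- lung 2 (between -1.25 and -1.09, edgeR adjusted p between 0.0741 and 0.0865). Klra2 (0.60, edgeR adjusted p = 0.0662) and Klra3 (0.11, edgeR adjusted p = 0.869) did not pass.

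**Figure D2:**
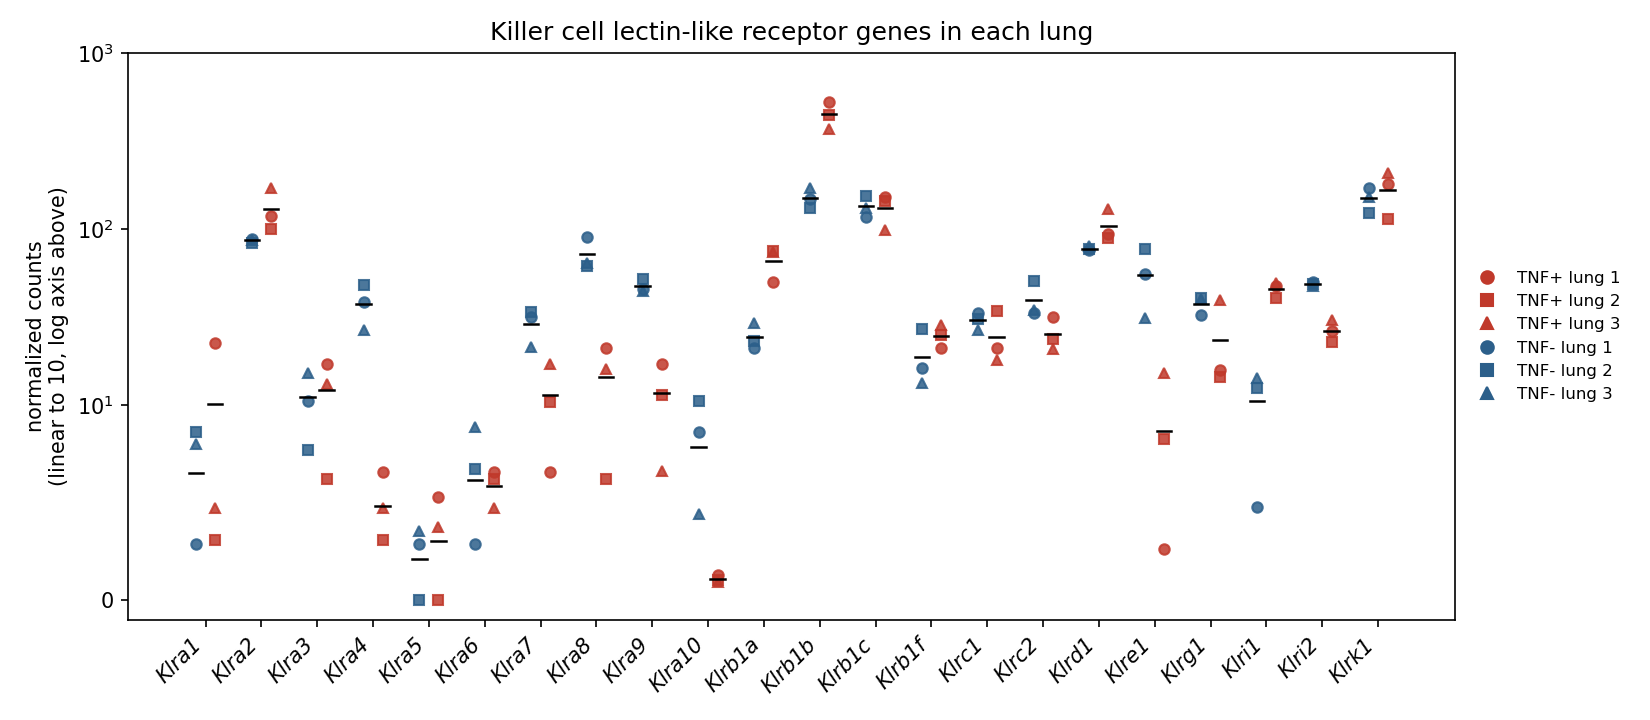
Normalized counts of 22 killer cell lectin-like receptor genes in each lung (linear axis up to 10, log axis above), with 1 symbol per mouse and a bar at the group mean. Of the genes that passed the test, Klra4, Klra7, Klra8, Klra9, Klre1 and Klri2 lie lower in TNF+ lungs and Klrb1a, Klrb1b and Klri1 higher. Klrc2 and Klra10 (lower) and Klrd1 and Klra2 (higher) also do not overlap, but did not pass or were not tested.

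Over all 22 killer cell lectin-like receptor genes of the lists, 18 were tested, 6 fell and 3 rose. The 50% that passed were close to the 47.4% of all genes tested. By direction, 33.3% fell and 16.7% rose, against 23.4% and 24.0% of all genes tested. Klra8, Klre1, Klrd1 and Klrb1c are among the 22. The 3 that rose were Klri1 and 2 other Klrb1 genes. Klrb1b, which encodes an inhibitory receptor, had 400, 432 and 390 counts in TNF+ lungs and 155, 137 and 192 in TNF- lungs (log2 fold change 1.57, standard error 0.18, edgeR adjusted p = 0.000266). Of its exon bases, 599 overlapped those of the same Gm44511. Klrb1a rose by 1.43 on the log2 scale (standard error 0.27, edgeR adjusted p = 0.00347). Klrk1, the gene of the activating receptor NKG2D, which natural killer cells and activated CD8 T cells share, did not pass (log2 fold change 0.16, standard error 0.25, edgeR adjusted p = 0.618).

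Eomes (ENSMUSG00000032446.14, chr9:118478212-118486132, plus strand) was the 1 gene of the 10 that rose. It had 75, 143 and 154 counts in TNF+ lungs and 56, 66 and 66 in TNF- lungs. All TNF+ lungs were higher, TNF+ lung 1 the least so, at 131 ± 27.6 against 58.5 ± 4.87 normalized counts (n = 3, log2 fold change 1.16, standard error 0.22, edgeR adjusted p = 0.00357). For each Ncr1 count there were 3.57, 11.9 and 5.31 Eomes counts in TNF+ lungs and 0.509, 0.443 and 0.868 in TNF- lungs. An antisense gene, Gm33460, overlaps 118 exon bases of Eomes. Tbx21, the gene of T-bet, the related factor that drives granzyme and perforin transcription, did not pass (log2 fold change -0.17, standard error 0.23, edgeR adjusted p = 0.563).

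**Figure D3:**
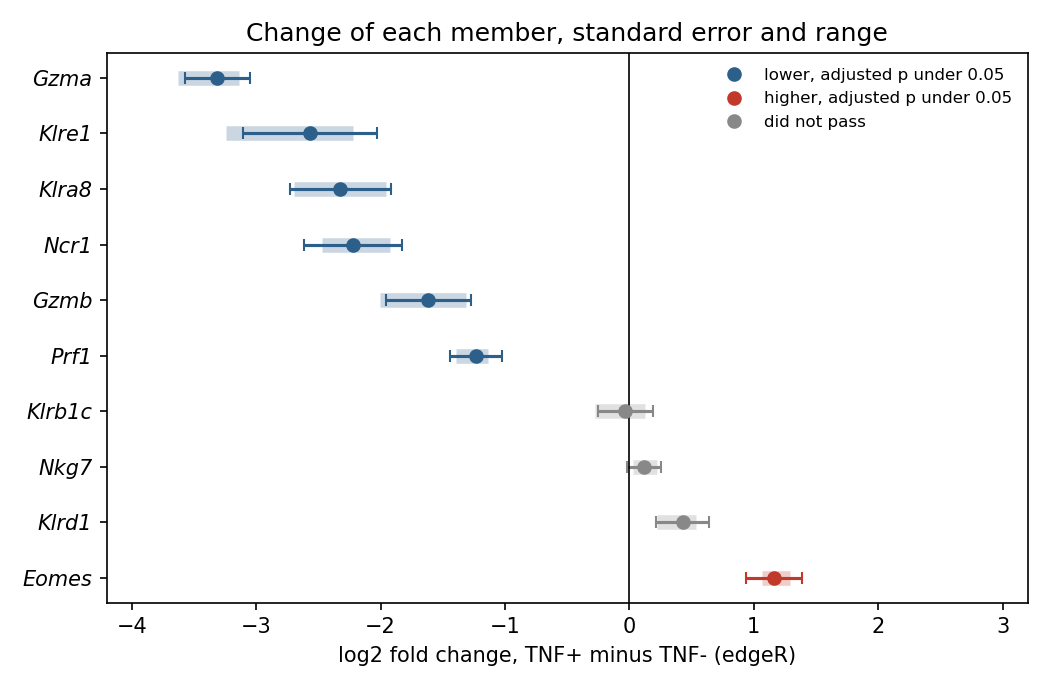
Log2 fold change (TNF+ minus TNF-) of each of the 10 genes from edgeR, with its standard error as a bar and the range over the alternatives as a shaded band. The 6 lower genes run from -3.31 for Gzma to -1.23 for Prf1, and the band of Klrb1c crosses 0.

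The groups did not overlap for 8 of the 10 genes after scaling, the 7 that passed the test and Klrd1. Of all genes tested, 58.7% did not overlap, 28.2% lower and 30.5% higher in TNF+ lungs. Each of the 7 calls stood on the same side of the threshold in every alternative fit in which the gene was tested. Klre1 and Klra8 were left untested where at least 10 counts were asked for in every lung. The levels per kilobase of exon also changed order. In TNF- lungs Gzma was the highest of the 10, at 20.95 ± 4.39 CPM per kilobase, above Nkg7 at 13.6 ± 1.75, and the lowest TNF- lung for Gzma (17.4) was above the highest for Nkg7 (15.6). In TNF+ lungs Nkg7 led at 14.8 ± 0.99 CPM per kilobase, above Klrd1 at 2.69 ± 0.57 and Gzma at 2.10 ± 0.68, and the spreads of Klrd1 and Gzma overlapped. Prf1 was next in TNF- lungs at 3.00 ± 0.58, followed by Gzmb (2.27 ± 0.30), Ncr1 (2.26 ± 0.81), Klra8 (2.01 ± 0.44), Klrd1 (2.00 ± 0.06) and Klrb1c (1.502 ± 0.21). These last 5 were close: each differed from its neighbour in the order by less than the SD of one of them, except Klrb1c from Klrd1. Klre1 (0.515 ± 0.216) and Eomes (0.466 ± 0.039) were the lowest in TNF- lungs. In TNF+ lungs Klrb1c (1.47 ± 0.33), Prf1 (1.28 ± 0.17) and Eomes (1.04 ± 0.22) followed Gzma, with Gzmb (0.746 ± 0.344), Ncr1 (0.483 ± 0.188), Klra8 (0.406 ± 0.213) and Klre1 (0.0821 ± 0.0591) below them.

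The genes were also set against Ptprc, the gene of the leukocyte surface protein CD45. Ptprc had 5224, 5489 and 7216 counts in TNF+ lungs and 2305, 2857 and 2522 in TNF- lungs, a 2.70-fold rise (log2 fold change 1.43, standard error 0.13, edgeR adjusted p = 8.14e-05). The difference of the log2 ratio to Ptprc was -4.77 for Gzma, -4.18 for Klre1, -3.84 for Klra8, -3.65 for Ncr1, -3.12 for Gzmb and -2.65 for Prf1. It was -1.48 for Klrb1c, -1.31 for Nkg7, -1.03 for Klrd1 and -0.30 for Eomes. The division moves every gene down by about the rise of Ptprc, so that 9 of the 10 genes were lower in every TNF+ lung restates that rise for Klrb1c, Nkg7 and Klrd1, and the groups overlapped for Eomes alone. For the 9 genes the exact two-sided permutation test gave p = 0.1, the smallest that 3 lungs against 3 allow (0.111 after Benjamini-Hochberg adjustment over the 10 genes), so the design cannot pass 0.05.

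Red cell genes moved with the genotype too. All 5 (Hbb-bs, Hbb-bt, Hba-a1, Hba-a2 and Alas2) fell in TNF+ lungs, with a median log2 fold change of -1.92, and together they took between 0.737% and 1.19% of the counts in TNF+ lungs and between 3.51% and 5.92% in TNF- lungs. In an alternative chosen after seeing the data, each of the 10 genes was divided by the sum of these 5. The division moves every gene up by about the fall of the red cell genes. Gzma was the 1 gene that remained lower in every TNF+ lung, with a difference of the log2 ratio of -1.30. Gzmb (0.35), Ncr1 (-0.18), Klre1 (-0.71) and Klra8 (-0.37) overlapped between the groups. Prf1 (0.82), Klrb1c (1.99), Nkg7 (2.16), Klrd1 (2.44) and Eomes (3.17) were higher in every TNF+ lung, which restates the fall of the divisor. The genes that did not overlap had p = 0.1 in the exact two-sided permutation test (0.167 adjusted over the 10 genes). The part of the blood held in the tissue in the falls of these genes was not tested.

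**Figure D4:**
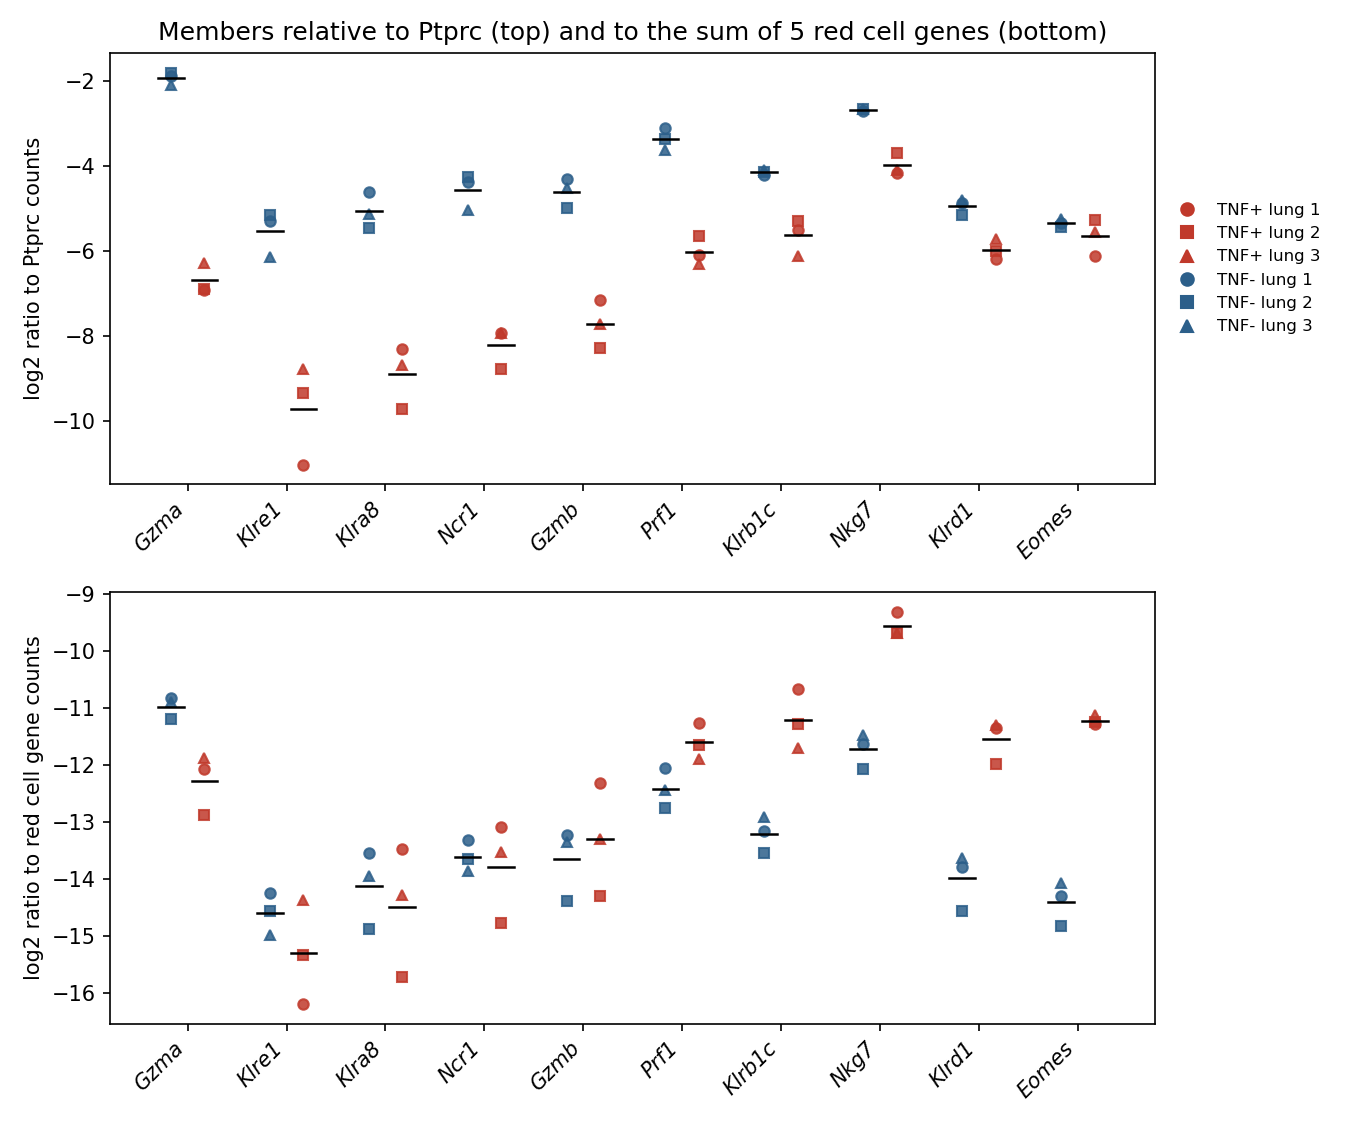
Log2 ratio of the counts of each of the 10 genes to those of Ptprc (top) and to the summed counts of 5 red cell genes (bottom) in each lung, TNF+ in red and TNF- in blue, with a bar at the group mean. Each division moves all 10 genes alike, and Gzma lies lower in every TNF+ lung in both panels.

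T cell markers rose. Of 13, 10 passed higher and none lower, with a median log2 fold change of 0.88, and none was at 0. Cd8a, the coreceptor of cytotoxic T cells, rose 1.81-fold (edgeR adjusted p = 0.00622), while Cd3e of the T cell receptor complex did not pass (log2 fold change 0.23, edgeR adjusted p = 0.291). The T cell list was the least steady, with between 5 and 13 of its genes higher when 1 lung was left out, 6 without TNF+ lung 1 and 5 without TNF+ lung 2, TNF- lung 1 or TNF- lung 2. Summed over the list, normalized counts ranged from 12663 to 18095 in TNF+ lungs and from 2396.6 to 4507 in TNF- lungs, where Cd4, a gene that macrophages also express, had 8876, 11907 and 8562 counts in TNF+ lungs and 292, 299 and 627 in TNF- lungs. Beside this, there were 0.930, 0.991 and 0.972 Nkg7 counts for each Cd3e count in TNF+ lungs and 1.17, 1.28 and 0.79 in TNF- lungs, an overlap. The ratio of Klrd1 to Cd3e also overlapped, at 0.225, 0.201 and 0.316 against 0.260, 0.227 and 0.178. That of Prf1 to Cd3e did not, at 0.241, 0.255 and 0.210 against 0.875, 0.790 and 0.406. The ratio of Klrb1c to Cd3e overlapped, at 0.365, 0.327 and 0.240 against 0.405, 0.457 and 0.293. The ratio of Eomes to Cd3e was higher in every TNF+ lung, at 0.238, 0.334 and 0.356 against 0.184, 0.188 and 0.131. What part T cells had in the values of Eomes, Nkg7, Klrd1 and Klrb1c was not tested.

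Mast cells and basophils, which can also carry granzyme B, showed few counts. Of their 11 markers, 4 were tested, 3 fell (5 of those that passed the filter without TNF+ lung 3) and none rose, and 1 (Mrgprb2) was at 0 in all lungs. Their summed normalized counts were between 7.91 and 73.6 in TNF+ and between 136 and 207 in TNF- lungs, and their part in the fall of Gzmb was not tested.

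Of the markers of the other cells that share these genes, 5 of the 6 for group 1 innate lymphoid cells rose and 1 (Itga1) fell. Their summed normalized counts were 43874 to 50821 in TNF+ and 23441 to 27066 in TNF- lungs, sums that Tmem176a and Tmem176b set. These 2 stood at 94.8 and 152 CPM per kilobase in TNF- lungs, far above Ncr1 at 2.26. The 6 serve to separate these cells from natural killer cells, and in whole lung they do not show which cells carried them. All 6 macrophage markers rose as well. Cxcr6, 1 of the 5 that rose, did not pass without TNF+ lung 1, TNF+ lung 3, TNF- lung 1 or TNF- lung 2 (log2 fold change between 0.61 and 0.89, edgeR adjusted p between 0.0594 and 0.112). Itga1 did not pass without TNF+ lung 1, TNF+ lung 2, TNF- lung 1 or TNF- lung 2 (log2 fold change between -0.79 and -0.54, edgeR adjusted p between 0.0518 and 0.0931). Of 5 gamma delta T cell markers, 2 rose and 1 (Sox13) fell, and Sox13 alone, not a receptor gene, set the sums of 1993.6 to 2458.1 and 4846.7 to 5567.1. Of the receptor genes, Tcrg-C2 (1.16, edgeR adjusted p = 0.012) and Tcrg-C4 (1.22, edgeR adjusted p = 0.0112) rose, while Tcrg-C1 (0.79, edgeR adjusted p = 0.0597) and Trdc (0.04, edgeR adjusted p = 0.893) did not pass. Of 6 neutrophil markers 4 fell with all lungs, with a median log2 fold change of -1.26. Cxcr2 (-2.33, edgeR adjusted p = 0.00195), S100a9 (-1.77, edgeR adjusted p = 0.00569) and Retnlg (-1.48, edgeR adjusted p = 0.0197) moved in the direction of Gzma and Ncr1, while Mmp9, which macrophages also express, rose by 4.99 (edgeR adjusted p = 2.72e-06) and set the list's sums of 14248 to 19340 in TNF+ lungs (2152.9 to 3568.6 in TNF- lungs). Retnlg did not pass without TNF+ lung 2, TNF+ lung 3 or TNF- lung 3 (between -1.38 and -1.12, edgeR adjusted p between 0.0592 and 0.0686). The same lungs ended the call of S100a8, the other gene that fell (-1.04 with all lungs). Without 1 of these it stood between -0.93 and -0.78 (edgeR adjusted p between 0.0564 and 0.0728). Of 10 markers of lung epithelium and endothelium, 6 fell and none rose, with sums of 639120 to 813900 and 1201800 to 1386500, among them Ager (-1.40, edgeR adjusted p = 0.000205) and Cdh5 (-1.17, edgeR adjusted p = 0.00135). No marker of these lists was at 0, and their part in the values of the 10 genes was not tested.

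Most other granule genes that were tested rose, unlike Gzma, Gzmb and Prf1. Of 14 further genes of granule contents and death ligands, 8 were tested, 6 rose and 1 fell. Gzmk, the granzyme typical of memory CD8 T cells, had 47, 95 and 88 counts in TNF+ lungs and 23, 8 and 29 in TNF- lungs, a rise of 2.13 on the log2 scale (standard error 0.41, edgeR adjusted p = 0.00365). Its gene lies close to Gzma on chromosome 13, at chr13:113171608-113225908. Gzmm, which encodes granzyme M, fell, with 26, 27 and 34 counts against 62, 59 and 63 (log2 fold change -0.87, standard error 0.23, edgeR adjusted p = 0.0143). The granzymes thus split, with Gzma, Gzmb and Gzmm lower and Gzmk higher among the 4 tested. Cst7, an inhibitor of the proteases that activate granzymes, rose by 2.19 on the log2 scale (edgeR adjusted p = 0.000328). Fasl, the ligand of the other killing route, rose by 1.16 (edgeR adjusted p = 0.0357), but did not pass without TNF+ lung 1 or without any 1 of the TNF- lungs (between 0.67 and 1.19, edgeR adjusted p between 0.075 and 0.15). The remaining 3 that rose were Ctsw (0.72, edgeR adjusted p = 0.0081), Ctsc (0.67, edgeR adjusted p = 0.00329) and Srgn (0.56, edgeR adjusted p = 0.00576), of which cathepsin C removes the propeptide of granzymes and serglycin packs them in the granule. Macrophages also express Cst7, Ctsc and Srgn. All 6 macrophage markers rose, with a median log2 fold change of 3.26 and summed normalized counts of 101160 to 163090 in TNF+ and 6273.4 to 8117.3 in TNF- lungs, and their part in these rises was not tested.

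Of 10 genes of granule release, 5 rose and 2 fell. Unc13d, which primes granules for fusion with the membrane, had 948, 1003 and 1251 counts in TNF+ lungs and 2502, 2423 and 2859 in TNF- lungs (log2 fold change -1.06, standard error 0.10, edgeR adjusted p = 8.81e-05). Rab27a, the small GTPase that docks the granules, fell by 0.38 on the log2 scale (edgeR adjusted p = 0.0139). Both genes also serve other secretory cells of the lung. The cytoskeletal regulators Was (1.67, edgeR adjusted p = 5.66e-05) and Coro1a (1.16, edgeR adjusted p = 0.000608), which all leukocytes use, rose. Of the 4 genes of granzyme inhibitors, 0 passed in edgeR, DESeq2 or limma-voom, and 0 had an unadjusted edgeR p under 0.05. Serpinb9, the inhibitor of granzyme B, had a log2 fold change of 0.0066 (standard error 0.13, edgeR adjusted p = 0.972).

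Of 15 tested genes of activating receptors other than the 10, 7 rose and 2 fell, and of 12 tested inhibitory receptor genes 4 rose and 3 fell. Of the rises named here, those of Fcgr3, Slamf7 and Lilrb4a were of genes that myeloid cells also express. Fcgr3, the receptor CD16 for antibody-coated targets, rose by 3.50 on the log2 scale (edgeR adjusted p = 8.90e-06), and Slamf7 by 2.80 (edgeR adjusted p = 6.50e-06). Lilrb4a rose by 3.69 (edgeR adjusted p = 6.14e-06) and Tigit, a checkpoint receptor of T and natural killer cells, by 2.48 (edgeR adjusted p = 0.00195). The falls were of Klra4, Klri2, Klra9 and Klra7, given above, and of Ceacam1 (-0.51, edgeR adjusted p = 0.0262), which did not pass without TNF+ lung 1, TNF+ lung 2, TNF- lung 1 or TNF- lung 2 (between -0.50 and -0.41, edgeR adjusted p between 0.0633 and 0.0905). Of 13 adaptor and kinase genes 8 rose and none fell. Tyrobp, the adaptor DAP12 that signals for Ly49H and Ly49D, had 7271, 8830 and 8516 counts in TNF+ lungs and 1048, 1411 and 1530 in TNF- lungs (log2 fold change 2.85, standard error 0.15, edgeR adjusted p = 8.38e-06). Fcer1g, the adaptor of NKp46, rose by 2.59 (edgeR adjusted p = 1.18e-05), and Hcst, the adaptor DAP10 of NKG2D, by 1.84 (edgeR adjusted p = 0.000647). The adaptors therefore rose while the receptors Klra8, Klra4 and Ncr1 fell. The part of macrophages in the adaptor genes, whose markers rose as given above, was not tested.

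**Figure D5:**
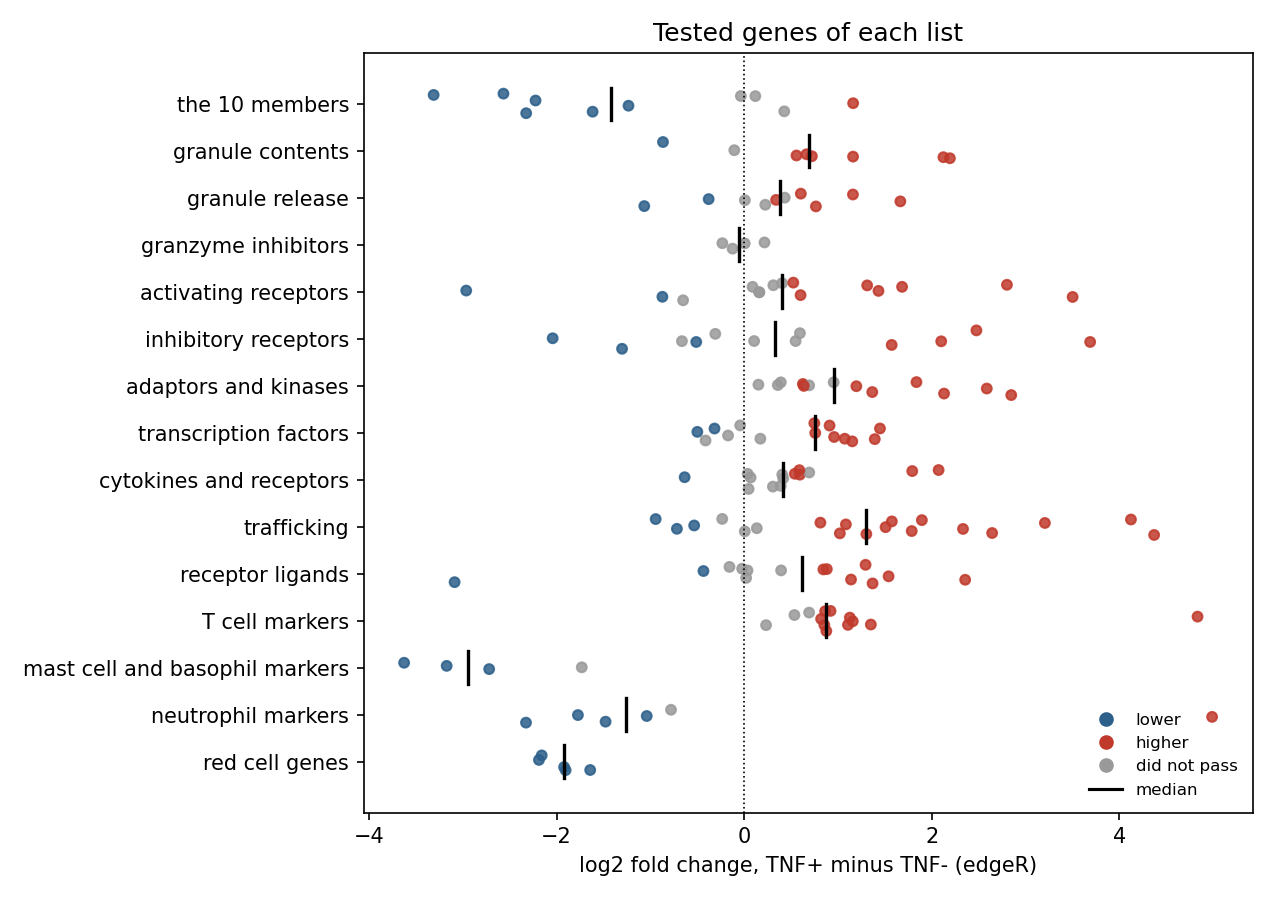
Log2 fold change (TNF+ minus TNF-, edgeR) of the tested genes of each list, 1 point per gene, coloured by the call (adjusted p under 0.05), with a bar at the median. The 10 genes have a median of -1.42, while the further granule contents have 0.69 and the adaptors and kinases 0.96.

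Of 14 transcription factor genes of the lineage 8 rose and 2 fell. Runx3, whose product binds the RUNX motif, rose by 0.76 on the log2 scale (edgeR adjusted p = 0.00274), Zfp683 by 1.45 (edgeR adjusted p = 0.0141) and Nfil3 by 1.39 (edgeR adjusted p = 0.0209). Foxo1 fell by 0.50 (edgeR adjusted p = 0.00784) and Tcf7 by 0.32 (edgeR adjusted p = 0.0349). Nfil3 had 526, 231 and 264 counts in TNF+ lungs and 165, 146 and 169 in TNF- lungs. Its rise was 0.67 without TNF+ lung 1 (edgeR adjusted p = 0.0186), and it did not pass without TNF- lung 1 (1.41) or TNF- lung 2 (1.35, edgeR adjusted p at most 0.0698). Zfp683 did not pass without TNF+ lung 1 (1.18) or TNF- lung 2 (1.28, edgeR adjusted p at most 0.0628), nor Tcf7 without TNF+ lung 1, TNF+ lung 3 or TNF- lung 2 (between -0.36 and -0.25, edgeR adjusted p between 0.0593 and 0.121). Of 14 tested genes of cytokines and their receptors 5 rose and 1 fell, with 3 rising without TNF+ lung 1, TNF- lung 1 or TNF- lung 2. Il15, the cytokine on which natural killer cells depend, had 99, 106 and 153 counts in TNF+ lungs and 94, 98 and 80 in TNF- lungs (log2 fold change 0.59, standard error 0.20, edgeR adjusted p = 0.0426). Leaving out any 1 lung but TNF+ lung 2 ended that call (between 0.48 and 0.67, edgeR adjusted p between 0.0628 and 0.124). The same lungs ended the call of Il18 (0.59 with all lungs, between 0.39 and 0.59 without 1 of these, edgeR adjusted p between 0.0663 and 0.146). Il2rb, a receptor chain for Il15, did not pass (log2 fold change 0.42, standard error 0.15, edgeR adjusted p = 0.0529). The shared chain Il2rg (1.79, edgeR adjusted p = 1.46e-05) and Il21r (2.07, edgeR adjusted p = 0.000169) rose. Il18r1 fell by 0.63 (edgeR adjusted p = 0.00481). Ifng, the main cytokine product of natural killer cells, had 17, 8 and 22 counts in TNF+ lungs and 6, 7 and 9 in TNF- lungs and was not tested.

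Of 19 tested genes of lymphocyte trafficking 13 rose and 3 fell, with 1 falling without TNF+ lung 2 or TNF- lung 2. The interferon-induced chemokines Cxcl9 and Cxcl10, which attract cells that carry Cxcr3, rose by 4.37 (edgeR adjusted p = 2.80e-05) and 4.13 (edgeR adjusted p = 4.63e-05) on the log2 scale. S1pr1, which endothelial cells also express, fell by 0.94 (edgeR adjusted p = 0.000487). Of 14 tested genes of ligands 7 rose and 2 fell. Cd48, the ligand of 2B4, rose by 2.36 (edgeR adjusted p = 1.70e-05) and Ulbp1, a ligand of NKG2D, by 1.54 (edgeR adjusted p = 0.00472). H60c, another NKG2D ligand, had 9, 1 and 0 counts in TNF+ lungs and 40, 39 and 26 in TNF- lungs, and Pvr fell by 0.43 (edgeR adjusted p = 0.00877). For H60c, TNF+ lungs 2 and 3 were under the smallest detectable level, so the fitted log2 fold change of -3.09 (standard error 0.83, edgeR adjusted p = 0.0163) is no bound. It was -5.78 without TNF+ lung 1 and -2.44 without TNF+ lung 3, and it did not pass without TNF+ lung 2 (-2.61, edgeR adjusted p = 0.0641). Over the lists of granule, receptor, signalling, transcription factor, cytokine, trafficking and ligand genes, without the cell type markers, 123 of the 138 genes found in the table were tested. Of these, 63 rose (51.2%) and 16 fell (13%), with a median log2 fold change of 0.59. Of all genes tested, 24.0% rose and 23.4% fell, and of the 10 genes 1 rose and 6 fell. The count of each single list is to be read against the same shares of all genes tested.

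Of the 16488 genes compared, the 5 whose profile over the 6 lungs was nearest to the mean log2 profile of the 10 genes, by root mean square distance, were Rapgef4 (0.0521), Mylk (0.0609), Bmp4 (0.0646), BC034090 (0.0669) and St3gal2 (0.0764). They were chosen by their values in these lungs, so that they were lower in TNF+ lungs, by 2.05-fold for BC034090 to 2.22-fold for Rapgef4, follows from the choice. The 10 genes were themselves farther from their own mean, between 0.239 for Prf1 and 1.16 for Eomes, so the mean profile describes a group that was not uniform. Within TNF+ lungs, lung 2 had the lowest value of Gzma, Gzmb, Ncr1, Klrd1 and Klra8 and the highest of Prf1, Eomes and Nkg7. The coefficient of variation over TNF+ lungs ran from 6.74% for Nkg7 to 72.0% for Klre1, and over TNF- lungs from 3.00% for Klrd1 to 41.9% for Klre1.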

How the data were processed

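Whole-lung RNA of 3 TNF+ and 3 TNF- mice was measured as bulk RNA-sequencing with a stranded poly(A) kit and single-end reads of 100 bases. The authors deposited raw counts of reads for each gene and mouse, not normalized. The submitters' processing notes name Trimmomatic (version 0.36), STAR (version 2.5.2b), featureCounts and the genome build GRCm38.p5, while the annotation and the strand setting of the counting are not given in the sources used here. All 6 count columns carry a genotype and a number, which gave the mouse.

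EdgeR (version 4.0.16, under R version 4.3.3) was run on the table after filterByExpr and TMM normalization. Its quasi-likelihood test had genotype as its single term, p-values were adjusted by Benjamini-Hochberg over all genes tested, and the threshold was 0.05. Standard errors were obtained from the log2 fold change and the F statistic. For normalized counts, TMM-scaled library sizes were brought to their common mean. The log2 ratios to Ptprc and to the red cell genes used a pseudocount of 0.5. The other ratios of 1 gene to another divided raw counts without a pseudocount. Levels per kilobase used the exon length of GENCODE M21, in which 225 of the 227 symbols of the lists were found, and shared sequence was measured as the windows of 100 bases that a gene's transcripts have in common with those of other genes, overlapping ones included.

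The 10 genes and the lists were chosen with earlier results of these data known. The genes named from each list are the 2 with the greatest rise and the 2 with the greatest fall among those past the threshold without overlap, together with a set of partner genes named whatever their values, and the 5 genes nearest to the mean profile. The other members of the Klra, Klrb, Klrc and Klri families, Ctsw, Ctsc, Srgn, Ceacam1, Il18, Runx3, Cd4, Gm42418, Krt13 and the marker genes named beside them were chosen after their values were seen. Alternatives were the tools DESeq2 (version 1.42.0) and limma-voom (limma version 3.58.1), scaling by total counts or by the size factors of DESeq2, dropping the filter or asking for 10 counts per lung, robust dispersion, a block for the replicate number, a bound of 1 on the absolute log2 fold change, and each lung left out in turn. The programs were tested on simulated counts. Same-numbered mice are different animals, and their deviations from the group means did not go together.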

Additional observations from a re-analysis of the deposited data

How the results depend on the processing

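The 10 genes gave 6 lower and 1 higher in every alternative fit between the genotypes, the lungs left out in turn included. The exception was that 4 were lower where at least 10 counts were asked for in every lung, because Klre1 and Klra8 were then not tested. Over their log2 fold changes, 146 of 148 values kept their direction and their side of the threshold, and the other 2 were of Klrb1c, 0.12 without TNF+ lung 3 and 0.07 without TNF- lung 2 (range over the lungs left out -0.28 to 0.12, adjusted p between 0.51 and 0.93 over its alternatives with edgeR, DESeq2 and limma-voom). Relative to Ptprc, all 80 values kept their direction. The division by the red cell genes, chosen after seeing the data, is not among these fits. It gave 1 gene lower and 5 higher in every TNF+ lung, and 4 overlapped.

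Asking for an absolute log2 fold change of at least 1, a stricter rule by construction, left 1980 genes higher and 2340 lower in place of 4610 and 4486, and 5 genes of the pathway lists lower in place of 16. Without TNF+ lung 1 and TNF- lung 1 together, 2689 genes were higher and 9 genes of the pathway lists lower. With lungs left out singly or together, between 2689 and 4571 genes were higher and between 3375 and 4593 lower, and between 44 and 62 genes of the pathway lists were higher and between 9 and 16 lower, 10 of them without TNF+ lung 2. Gzmm, Srgn, Rab27a, Pvr and Tcrg-C4 did not pass with both first lungs left out (edgeR adjusted p between 0.0564 and 0.115). Fewer lungs were fitted where lungs were left out, and the causes of these changes were not tested.

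In the fit with a replicate block, 1 of the 10 genes was higher and 6 were lower, with 3827 genes higher and 3859 lower in the table and 57 and 12 in the pathway lists. The numbers do not pair the mice: the correlation of deviations was -0.149, -0.00429 and -0.242 for same-numbered mice and between -0.0604 and 0.211 for the others. The scaling alternatives moved the median log2 fold change of all genes by at most 0.026. At these depths Ifng and 4 of the Klra genes did not pass the filter on low counts and were not tested.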
